A study of Mus musculus with 6 samples.

Results

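Retinoid storage, transport and oxidation was followed through 9 genes, Lrat, Rbp4, Ttr, Retsat, Bco1, Dhrs3, Aldh1a1, Aldh1a7 and Cyp26a1, in regenerating liver of Aqp5+/+ and Aqp5-/- mice after partial hepatectomy. The members were picked by name from a table of 16858 genes. Of the 9, 8 stood there under the listed symbol, and Bco1 stood under its older symbol Bcmo1 and was taken by its Ensembl identifier. None of the 9 passed the test of the genotypes with edgeR's quasi-likelihood method. Cyp26a1 came closest, with a 3.36-fold higher level in Aqp5-/- livers and no overlap between the groups, and Dhrs3, with a level 0.584 times that of Aqp5+/+ livers, was next. Y-linked transcripts were nearly absent from the Aqp5-/- libraries alone, so genotype and sex-linked expression cannot be told apart in these differences.

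RNA was taken from liver at 72 h after surgical removal of 70% of the organ (PHx), with 3 libraries per genotype. The Aqp5+/+ mice were wild-type animals, C57 by the labels and C57BL/6 by the methods. The Aqp5-/- mice lacked aquaporin 5, a channel for water and hydrogen peroxide, through editing of fertilized eggs with CRISPR/Cas9, and no further allele or agent is named for these libraries. Both genotypes had undergone PHx, so an unoperated liver is not part of the comparison. The study's methods give 3-month-old male mice for PHx, while the labels give neither age nor sex, and neither source says whether each library came from its own mouse. The p-values therefore cover only the scatter among these libraries, part of which may be technical.

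The liver holds most of the vitamin A of the body. Hepatocytes take up retinoids from the diet and pass retinol to stellate cells, which store it as retinyl esters. Hepatocytes also release retinol to the blood on a carrier of retinol binding protein and transthyretin. Within cells retinol is oxidized reversibly to retinaldehyde and then irreversibly to retinoic acid, a ligand of nuclear receptors, and retinoic acid is broken down by cytochrome P450 enzymes whose genes it induces.

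Library totals lay between 7130831 counts for Aqp5+/+ replicate 2 and 15550006 for Aqp5-/- replicate 3. Both libraries stood apart from the rest. Aqp5+/+ replicate 2 was the highest or the lowest of the 6 libraries in 57.0% of the tested genes, and Aqp5-/- replicate 3 in 49.0%. Of 12353 tested genes, 41 passed the test (adjusted p under 0.05), 19 of them higher and 22 lower in Aqp5-/- livers. Levels are given as CPM, that is, counts scaled to a common library size with TMM factors. The summed level of 13 hepatocyte markers was 79145 to 129858 CPM in Aqp5+/+ libraries and 115621 to 121048 CPM in Aqp5-/- libraries, so that the liver label held. The 4 Y-linked genes examined summed to 287 to 471 CPM in the Aqp5+/+ libraries and to 0.869 to 1.19 CPM in the Aqp5-/- libraries. Of the tested genes on lists of male-biased and female-biased liver transcripts, 9 of 17 were called lower and 10 of 20 called higher in Aqp5-/- libraries. In the Aqp5-/- libraries, Y-linked levels this low are at odds with the male mice that the study's methods give for PHx. Genotype and sex-linked expression cannot be told apart in these libraries, and this holds for every comparison that follows.

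Among the 9 members, 4 lie on chromosome 19 in GRCm38: Aldh1a1, Aldh1a7, Cyp26a1 and Rbp4. Aldh1a1 and Aldh1a7 are neighbours with 49487 bases between them, on opposite strands, and 415092 bases separate Cyp26a1 from Rbp4. The stretches just upstream of RefSeq starts of Aldh1a1 and Aldh1a7 are shown for their likeness. They lie outside the transcripts that begin at these starts, so they do not show whether reads of the pair can be confused. In 100 bases that end 11 bases before each start, 94 were the same and 6 differed, and the capitals mark the bases that differ. The Aldh1a1 start used here was picked by its position and lies inside the annotated gene, which begins at 20492715. The Aldh1a1 stretch is chr19:20601858-20601957 on the plus strand and the Aldh1a7 stretch is chr19:20727567-20727666 on the minus strand, both in GRCm38.p6.
Aldh1a1: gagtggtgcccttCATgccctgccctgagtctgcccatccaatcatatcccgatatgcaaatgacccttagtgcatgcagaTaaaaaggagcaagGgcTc
Aldh1a7: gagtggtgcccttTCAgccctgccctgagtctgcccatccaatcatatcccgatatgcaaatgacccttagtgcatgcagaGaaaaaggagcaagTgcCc

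The promoters were also searched for paired hexamers of the kind that retinoid receptors bind, since Cyp26a1 had the largest genotype difference of the members. A pair was 2 half-sites in the same orientation, each either AGGTCA or AGTTCA or a form of these that opens with G, namely GGGTCA and GGTTCA, on either strand, with a spacer of 1 base (DR1), 2 bases (DR2) or 5 bases (DR5). The windows ran from 250 bases before to 50 bases after each RefSeq start, and 8 of the 9 members had at least 1 window. These members had 12 windows together. The shares below are of windows, whereas the members are named as genes, so the 2 are not in the same unit. A DR5 pair stood in 0.0974% of 32851 windows and among the members in that of Cyp26a1. A DR1 pair stood in 0.222% of the windows and among the members in that of Bco1, while a DR2 pair stood in 0.268% of the windows and in none of the members'. These matches describe letters in the sequence, not binding. The DR5 pair of Cyp26a1 is given in capitals within 30 bases at chr19:37697770-37697799 on the plus strand, where it reads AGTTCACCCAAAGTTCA on the opposite strand and lies between 32 and 16 bases before the start. The DR1 pair of Bco1, AGGTCAAAGGTCA on the opposite strand between 56 and 44 bases before the start, is given in capitals within chr8:117095762-117095849 on the plus strand, both in GRCm38.p6.
Cyp26a1: taaagaTGAACTTTGGGTGAACTaatttgt
Bco1: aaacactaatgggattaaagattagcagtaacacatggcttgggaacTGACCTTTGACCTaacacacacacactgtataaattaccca

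Levels of different genes were compared per length, as CPM per kilobase of annotated exons averaged over the 6 libraries. Ttr had the highest level at 2012 CPM per kilobase, followed by Rbp4 at 982, Aldh1a1 at 195 and Aldh1a7 at 104 CPM per kilobase. Dhrs3 followed at 40.5, Retsat at 32.5, Lrat at 6.92, Bco1 at 5.02 and Cyp26a1 at 4.64 CPM per kilobase. The ranges over the 6 libraries overlapped between neighbours in this order, except between Rbp4 and Aldh1a1 and between Retsat and Lrat. By level per length the members thus fell into 3 tiers: the plasma carrier pair, 4 enzymes of intermediate level, and the 3 lowest, Lrat, Bco1 and Cyp26a1. The order was the same with the length of the longest coding transcript in place of all exons, where Aldh1a1, at 408 CPM per kilobase, no longer overlapped Aldh1a7.

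**Figure D1:**
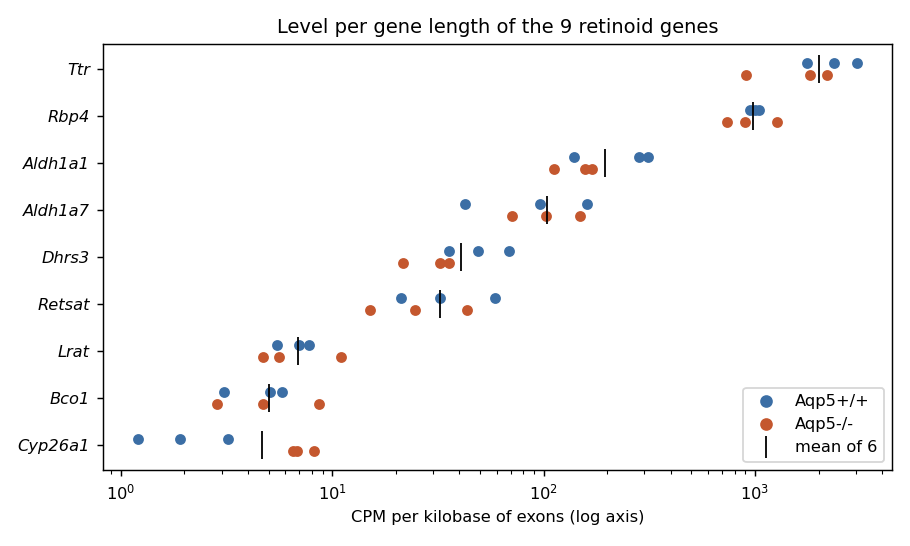
Level of the 9 retinoid genes in CPM per kilobase of exons, on a log axis. Points are the 3 Aqp5+/+ (blue) and 3 Aqp5-/- (orange) libraries, and the vertical mark is the mean of all 6. Ttr and Rbp4 stand at the top with means of 2012 and 982, and Cyp26a1, the lowest with 4.64, is the member whose 2 groups of points lie farthest apart.

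Of the 9 members, 0 were called by the quasi-likelihood test of edgeR, at p under 0.05 after Benjamini-Hochberg adjustment over all tested genes, where 0.332% of all tested genes were called. At an unadjusted p under 0.05 there were 2 members, or 22.2% against 8.78% of all tested genes. These were Cyp26a1 on the higher side, where 4.3% of all tested genes stood, and Dhrs3 on the lower side, where 4.48% stood. The same 2 were the members whose groups did not overlap, which held for 14.7% of all tested genes, 6.93% on the higher and 7.8% on the lower side. DESeq2 called 1 member, Cyp26a1, where it called 1.94% of all tested genes. The exact test of edgeR also called 1 member, again Cyp26a1, where it called 1.8% of all tested genes, and limma called 0, where it called 0.364%. The log2 fold change, Aqp5-/- over Aqp5+/+, was above 0 for 4 members and below 0 for 5, with a median of -0.04 against 0.01 for all tested genes. With library totals alone as the scale the median of all tested genes was 0.17.

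**Figure D2:**
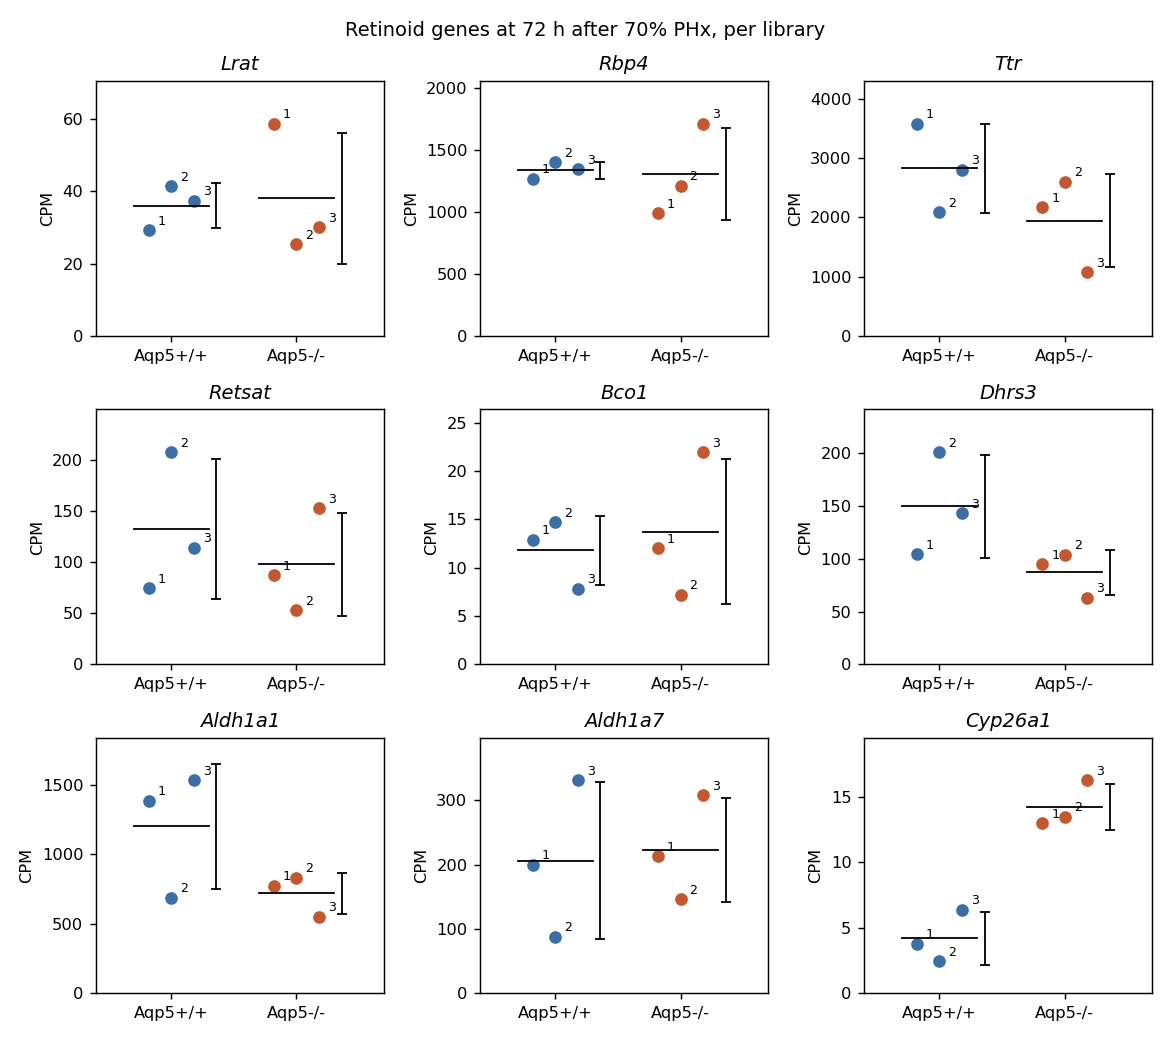
CPM of the 9 retinoid genes in each library at 72 h after 70% PHx, each panel with its own linear axis from 0. Points are libraries with their replicate number, horizontal lines are group means and the bar beside them is the SD (n = 3). The groups are clearly apart for Cyp26a1, whose Aqp5+/+ libraries lie at 2.40 to 6.35 CPM and whose Aqp5-/- libraries lie at 13.0 to 16.2 CPM.

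Lrat, lecithin retinol acyltransferase, makes the retinyl esters that stellate cells store (chromosome 3, 82892579 to 82903973, minus strand). It was at 29.3, 41.4 and 37.4 CPM in Aqp5+/+ replicates 1 to 3 and at 58.7, 25.3 and 30.1 CPM in Aqp5-/- replicates 1 to 3. The groups overlapped, and the highest value and the lowest both came from Aqp5-/- libraries. The means were 36.02 ± 6.21 CPM and 38.0 ± 18.1 CPM in that order (SD over 3 libraries), with a log2 fold change of 0.08 (standard error 0.33) and an adjusted p of 0.95 by edgeR. That fold change went below 0 with limma, with the replicate block and without replicate 1 of either genotype. The summed level of 17 stellate cell markers was 581 to 709 CPM in Aqp5+/+ and 524 to 652 CPM in Aqp5-/- livers, with 16 of them tested and 0 called. At an unadjusted p under 0.05 by edgeR 2 of the 16 were lower, against 4.48% of all tested genes. Groups did not overlap for 3, all lower, against 7.8% of all tested genes on that side. In bulk liver RNA fewer cells of a type and less RNA per cell cannot be told apart. Of 10 genes of activated stellate cells and matrix, 9 were tested and all 9 had a log2 fold change above 0, with a median of 2.12. Of these 9, 2 had an unadjusted p under 0.05 by edgeR, against 4.3% of all tested genes on the higher side. Without Aqp5-/- replicate 3 the median was 0.11, with 6 of 9 above 0. Col1a1, a collagen of this list, was at 23.9, 50.2 and 573 CPM in the Aqp5-/- libraries and at 21.2 to 70.8 CPM in the Aqp5+/+ libraries. The sum over the list, most of it from fibronectin (Fn1), was 2761 to 5665 CPM in Aqp5+/+ and 4440 to 7540 CPM in Aqp5-/- libraries. The part of these genes in the Lrat values was not tested.

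Rbp4, retinol binding protein, carries retinol in plasma (chromosome 19, 38116629 to 38125281, minus strand). It was measured at 1265, 1400 and 1340 CPM in the Aqp5+/+ libraries and at 988, 1210 and 1710 CPM in the Aqp5-/- libraries. The 3 Aqp5+/+ values lay inside the range of the Aqp5-/- values. The coefficient of variation of Rbp4 was 5.06% in Aqp5+/+ and 28.4% in Aqp5-/- livers, and the highest of the 6 libraries exceeded the lowest 1.73-fold, the smallest such ratio among the members. The means of Rbp4, 1335 ± 67.5 CPM and 1303 ± 370 CPM (SD over 3 libraries), gave a log2 fold change of -0.04 (standard error 0.31) and an adjusted p of 0.98 by edgeR.

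Ttr, transthyretin, is the partner that holds the Rbp4 protein in plasma and also carries thyroid hormone (chromosome 18, 20665280 to 20674321, plus strand). Its levels were 3583, 2089 and 2804 CPM in Aqp5+/+ and 2168, 2599 and 1075 CPM in Aqp5-/- libraries. The lowest value was that of Aqp5-/- replicate 3 and the other 2 Aqp5-/- values lay within the Aqp5+/+ range. Means of 2826 ± 747 CPM and 1947 ± 786 CPM (SD over 3 libraries) gave a log2 fold change of -0.54 (standard error 0.41) and an adjusted p of 0.71 by edgeR. Without each library in turn the log2 fold change of Ttr lay between -0.81 and -0.25. On a list of plasma carrier proteins of hepatocytes, 14 genes were tested, 0 were called, and the median log2 fold change was -0.19.

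The ratio of Rbp4 to Ttr counts asks whether the transcripts of the carrier pair kept their proportion. For every 100 Ttr counts there were 35.3, 67.0 and 47.8 Rbp4 counts in replicates 1 to 3 of Aqp5+/+ and 45.6, 46.5 and 159 in those of Aqp5-/-. Aqp5-/- replicate 3 alone had more Rbp4 than Ttr counts, and the other 2 Aqp5-/- libraries lay inside the Aqp5+/+ range. The log2 ratio differed by 0.53 between the genotypes with an exact permutation p of 0.7 (2-sided, 20 arrangements, smallest possible p 0.1), and without Aqp5-/- replicate 3 the difference was -0.07.

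Retsat, retinol saturase, reduces retinol to a dihydroretinol (chromosome 6, 72598475 to 72608425, plus strand). It stood at 74.6, 208 and 114 CPM in Aqp5+/+ and at 87.3, 53.2 and 153 CPM in Aqp5-/- libraries, with overlapping groups. The spread was wide in both genotypes, with coefficients of variation of 51.8% in each. The means of Retsat were 132 ± 68.4 CPM and 97.8 ± 50.7 CPM (SD over 3 libraries), the log2 fold change was -0.43 (standard error 0.46) and the adjusted p 0.78 by edgeR. Without Aqp5+/+ replicate 2, the highest library, the log2 fold change of Retsat was 0.05.

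Bco1 cleaves beta-carotene into retinaldehyde and so feeds the pathway from plant precursors (chromosome 8, 117095854 to 117133720, plus strand). Its levels were 12.9, 14.7 and 7.81 CPM in Aqp5+/+ and 12.01, 7.22 and 22.0 CPM in Aqp5-/- libraries. The Aqp5+/+ values lay inside the Aqp5-/- range. The means of Bco1, 11.8 ± 3.58 CPM and 13.7 ± 7.52 CPM (SD over 3 libraries), gave a log2 fold change of 0.23 (standard error 0.44) and an adjusted p of 0.88 by edgeR, and without Aqp5-/- replicate 3 the log2 fold change was -0.29.

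Dhrs3 reduces retinaldehyde back to retinol and so works against the formation of retinoic acid (chromosome 4, 144892827 to 144928209, plus strand). It was at 105, 201 and 143 CPM in Aqp5+/+ and at 95.1, 104 and 63.4 CPM in Aqp5-/- libraries. The groups did not overlap, but the nearest pair, at 104.6 CPM in Aqp5+/+ replicate 1 and 104.1 CPM in Aqp5-/- replicate 2, was apart by less than the spread in either group. Scaled by library totals alone this pair stood in the other order, at 104.2 and 106.1 CPM, and the groups overlapped. The means of Dhrs3 were 150 ± 48.7 CPM and 87.5 ± 21.4 CPM (SD over 3 libraries), and the log2 fold change was -0.78 (standard error 0.31), with an adjusted p of 0.53 by edgeR, against 0.034 unadjusted. The log2 fold change stayed below 0 without any single library, between -0.98 and -0.51.

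Aldh1a1, the main retinaldehyde dehydrogenase of liver, makes retinoic acid from retinaldehyde and oxidizes other aldehydes (chromosome 19, 20492715 to 20643465, plus strand). Its levels were 1389, 688 and 1534 CPM in Aqp5+/+ and 775, 832 and 550 CPM in Aqp5-/- libraries. All 3 Aqp5-/- libraries lay below Aqp5+/+ replicates 1 and 3, while Aqp5+/+ replicate 2 lay below 2 of them, so the groups overlapped. The means of Aldh1a1 were 1204 ± 453 CPM and 719 ± 149 CPM (SD over 3 libraries), with a log2 fold change of -0.74 (standard error 0.37) and an adjusted p of 0.59 by edgeR, against 0.079 unadjusted. Leaving out Aqp5+/+ replicate 2 took the log2 fold change to -1.03, with an adjusted p of 0.52 by edgeR, and over all 6 omissions it stayed between -1.03 and -0.53.

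Aldh1a7, a rodent copy of Aldh1a1 whose gene lies next to it (chromosome 19, 20692953 to 20727562, minus strand), was at 200, 87.9 and 331 CPM in Aqp5+/+ and at 213, 146 and 308 CPM in Aqp5-/- libraries. Both groups covered much the same range, and the Aqp5+/+ values enclosed all 3 Aqp5-/- values. The means of Aldh1a7 were 206 ± 122 CPM and 222 ± 81.4 CPM (SD over 3 libraries), with a log2 fold change of 0.11 (standard error 0.47) and an adjusted p of 0.95 by edgeR. The fold change was below 0 without Aqp5+/+ replicate 2 and without Aqp5-/- replicate 3. How reads that fit both Aldh1a1 and Aldh1a7 were handled is not given in the sources used here, so the split of counts between these copies is uncertain.

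Per 100 Aldh1a1 counts there were 14.4, 12.8 and 21.6 Aldh1a7 counts in replicates 1 to 3 of Aqp5+/+ and 27.5, 17.5 and 56.0 in those of Aqp5-/-. The groups overlapped, since Aqp5-/- replicate 2 lay below Aqp5+/+ replicate 3. The log2 ratio was higher by 0.92 in Aqp5-/- livers, with an exact permutation p of 0.2 (2-sided, 20 arrangements, smallest possible p 0.1), and without Aqp5-/- replicate 3 the difference was 0.47.

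Cyp26a1 hydroxylates retinoic acid for disposal (chromosome 19, 37697798 to 37701536, plus strand). The deposited counts were 45, 16 and 78 in Aqp5+/+ and 160, 155 and 273 in Aqp5-/- libraries, the fewest of the 9 members over all libraries together. In CPM they came to 3.77, 2.40 and 6.35 in Aqp5+/+ and to 13.0, 13.5 and 16.2 in Aqp5-/- libraries. Every Aqp5-/- library was above every Aqp5+/+ library, and the highest of all 6 exceeded the lowest 6.76-fold, which was the widest range among the members. The means of Cyp26a1 were 4.17 ± 2.00 CPM and 14.2 ± 1.76 CPM (SD over 3 libraries), and the log2 fold change was 1.75 (standard error 0.39), higher in 3 of 3 Aqp5-/- libraries.

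Cyp26a1 had an adjusted p of 0.21 by edgeR's quasi-likelihood test, against 0.0017 unadjusted, and so did not pass. The adjusted p of Cyp26a1 was 0.0045 by DESeq2, 0.0078 by the exact test of edgeR and 0.18 by limma. Without each library in turn its log2 fold change lay between 1.49 and 2.18, with adjusted p from 0.15 to 0.61 by edgeR. The direction was thus the same in all 14 alternatives, while the call was made by 2 of them. Cyp26b1, the other member of the family with enough counts for a test, had means of 6.06 and 4.91 CPM in Aqp5+/+ and Aqp5-/- livers, with a log2 fold change of -0.28 (adjusted p = 0.90 by edgeR).

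**Figure D3:**
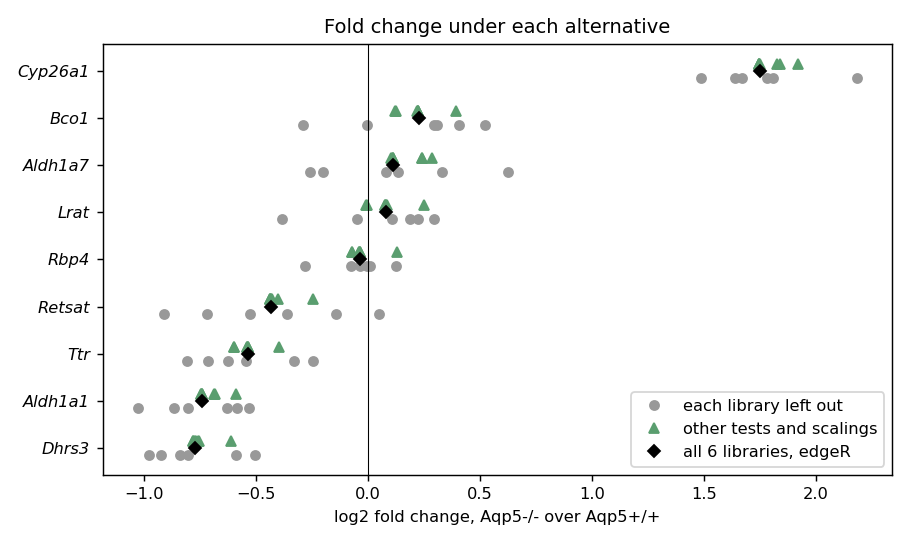
Log2 fold change of each member, Aqp5-/- over Aqp5+/+, with all 6 libraries (black), with each library left out (grey) and with the other tests, scalings and filters and the replicate block (green). Cyp26a1 stays between 1.49 and 2.18 and Aldh1a1, Dhrs3 and Ttr stay below 0, whereas Bco1, Aldh1a7, Lrat, Rbp4 and Retsat have points on both sides of 0.

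Aqp5-/- replicate 3 was the highest or lowest of the 6 libraries for 6 of the 9 members, the highest for Rbp4, Cyp26a1 and Bco1 and the lowest for Aldh1a1, Ttr and Dhrs3. That is 66.7% of the members, against 49.0% of all tested genes. Aqp5+/+ replicate 2 was at an end for 4 members, the highest for Dhrs3 and Retsat and the lowest for Aldh1a7 and Cyp26a1. The same Aqp5-/- library had the lowest sum of 13 pericentral hepatocyte markers, 2885 CPM, where the other 2 Aqp5-/- libraries had 6958 and 10899 CPM and the Aqp5+/+ libraries 11893 to 12948 CPM. It also had the highest sum of cholangiocyte markers, 444 CPM against 73.8 to 214 CPM in the other 5 libraries. All 13 pericentral markers had a log2 fold change below 0, and 0 were called, against 0.332% of all tested genes. Groups did not overlap for 3 of the 13, all lower in Aqp5-/- livers, against 7.8% of all tested genes on that side. The sum of macrophage markers was 410 to 715 CPM in Aqp5+/+ and 893 to 1854 CPM in Aqp5-/- livers. Of 12 macrophage markers tested, 0 were called and 11 were higher without overlap, against 6.93% of all tested genes on that side. The part of these cell markers in the members' values was not tested.

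The rest of the pathway was read from 5 lists with 78 distinct genes, of which 59 were tested. By edgeR's quasi-likelihood test 0 of the 59 were called, 2 were higher and 7 lower at an unadjusted p under 0.05, and the median log2 fold change was -0.14 against 0.01 for all tested genes. The 9 genes at an unadjusted p under 0.05 were 15.3% of the 59, against 8.78% of all tested genes (4.3% higher and 4.48% lower). DESeq2 called 4 of the 59, where it called 1.94% of all tested genes, the exact test of edgeR 3, where it called 1.8%, and limma 0. These calls of DESeq2 and the exact test include Aldh1a2, which passed the count filter only through the Aqp5-/- libraries. Aldh1a2 is also 1 of the 2 higher genes at an unadjusted p under 0.05. The members themselves are not on these lists, and the lists were written with earlier results of these libraries known.

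Among 20 tested dehydrogenases and reductases of retinol and retinaldehyde, the aldehyde oxidases Aox3 and Aox1, which can oxidize retinaldehyde among many aldehydes, had the smallest unadjusted p. Aox3 was at 1640, 2381 and 1060 CPM in Aqp5+/+ and at 376, 378 and 157 CPM in Aqp5-/- libraries. Every Aqp5-/- library of Aox3 was below every Aqp5+/+ library by a wide margin, and its log2 fold change was -2.48 (standard error 0.46) with an adjusted p of 0.12 by edgeR's quasi-likelihood test. DESeq2 gave Aox3 an adjusted p of 1.0e-06, the exact test of edgeR one of 0.00013 and limma one of 0.079. Aox1 stood at 487, 448 and 287 CPM in Aqp5+/+ and at 202, 183 and 164 CPM in Aqp5-/- libraries, again without overlap. Its log2 fold change was -1.15 (standard error 0.28), with an adjusted p of 0.26 by edgeR's quasi-likelihood test and of 0.0066 by DESeq2. The exact test of edgeR gave Aox1 an adjusted p of 0.041 and limma one of 0.26. The Aqp5-/- values of Aox1 were within a narrow band, unlike those of Aox3.

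Aldh1a2, a second retinaldehyde dehydrogenase, had 3, 1 and 2 counts in Aqp5+/+ and 10, 13 and 103 counts in Aqp5-/- libraries. It was scarce in every library, at 0.150 to 0.251 CPM and 0.811 to 6.13 CPM, and most of its counts came from Aqp5-/- replicate 3. The log2 fold change of Aldh1a2 was 3.75 (standard error 1.02) with an adjusted p of 0.32 by edgeR's quasi-likelihood test. Its adjusted p was 0.031 by DESeq2, 0.032 by the exact test of edgeR and 0.48 by limma. Aldh1a2 reached the minimum count of 10 only in the Aqp5-/- libraries. It thus passed the count filter only through the group where it was higher. Its fold change and p-values are therefore no support for a genotype difference. Without Aqp5-/- replicate 3 Aldh1a2 had too few counts for the test. The list as a whole had a median log2 fold change of -0.06, with 10 genes above and 10 below 0. Its summed level, 5380 to 5767 CPM in Aqp5+/+ and 2403 to 4339 CPM in Aqp5-/- libraries, held Aox3 and Adh1 as its most abundant genes in Aqp5+/+ livers. Adh1, the abundant alcohol dehydrogenase of hepatocytes, had means of 1371 and 1475 CPM in Aqp5+/+ and Aqp5-/- livers.

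**Figure D4:**
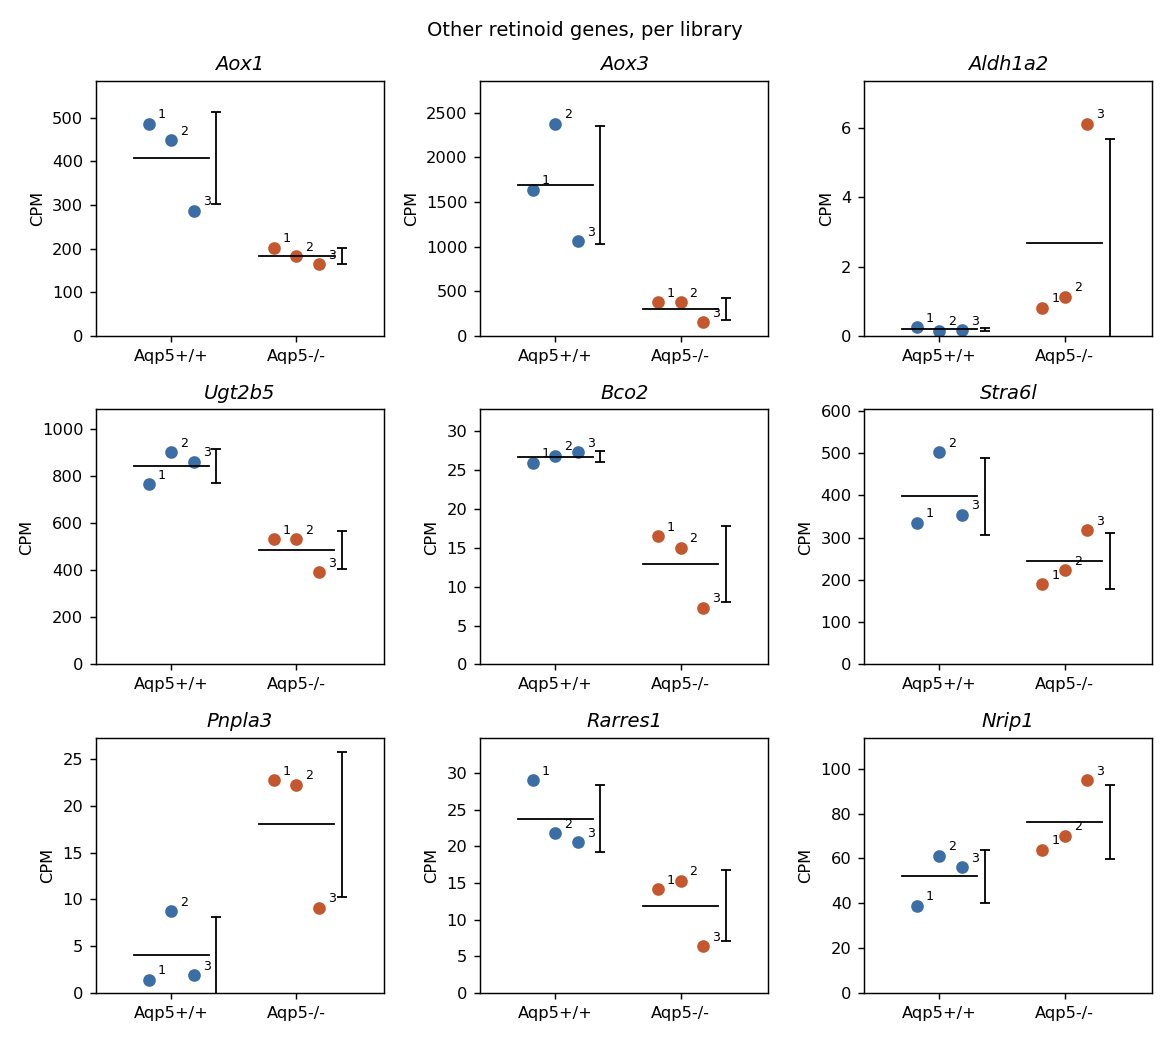
CPM of 9 further retinoid genes in each library, each panel with its own linear axis from 0, with points as libraries (numbered by replicate), horizontal lines as means and bars as SD (n = 3), which are not drawn below 0. Aox3 lies at 1060 to 2381 CPM in Aqp5+/+ and at 157 to 378 CPM in Aqp5-/- libraries, and the Aldh1a2 panel shows 1 Aqp5-/- library far above the other 5.

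For clearance of retinoic acid and its products, 6 genes were tested and the median log2 fold change was 0.03. Ugt2b5, a glucuronosyltransferase, was at 766, 904 and 862 CPM in Aqp5+/+ and at 533, 532 and 393 CPM in Aqp5-/- libraries, without overlap. Its log2 fold change was -0.80 (standard error 0.27) with an adjusted p of 0.45 by edgeR, and counts of this gene are uncertain because the Ugt2b family holds near-identical copies. Cyp2c39, a hydroxylase of retinoic acid in mouse liver, had 1.93, 1.35 and 6.19 CPM in Aqp5+/+ and 9.25, 5.56 and 6.90 CPM in Aqp5-/- libraries. The groups of Cyp2c39 overlapped, and its log2 fold change was 1.17 (standard error 0.58) with an adjusted p of 0.59 by edgeR, and 2.12 without Aqp5+/+ replicate 3. Ugt1a1, the bilirubin glucuronosyltransferase, had a log2 fold change of 0.31 with an adjusted p of 0.78 by edgeR. Whether reads of Cyp2c39 and Ugt1a1 can be shared with related genes was not examined, so their counts may be uncertain too.

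For binding, uptake and ester turnover, 13 genes were tested, with a median log2 fold change of -0.01. Bco2, the mitochondrial carotenoid oxygenase related to Bco1, was at 26.0, 26.9 and 27.3 CPM in Aqp5+/+ and at 16.5, 15.04 and 7.32 CPM in Aqp5-/- libraries. The groups of Bco2 did not overlap and the Aqp5+/+ libraries were within a narrow band, unlike those of Bco1. The log2 fold change of Bco2 was -1.05 (standard error 0.32), with an adjusted p of 0.40 by edgeR.

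Stra6l, a membrane receptor for the Rbp4 protein in mouse liver, was at 336, 503 and 355 CPM in Aqp5+/+ and at 190, 224 and 318 CPM in Aqp5-/- libraries. No Aqp5-/- library reached the Aqp5+/+ range, and the log2 fold change was -0.71 (standard error 0.30) with an adjusted p of 0.56 by edgeR. Pnpla3, a lipid droplet enzyme that hydrolyzes retinyl esters in human stellate cells, was at 1.42, 8.71 and 1.87 CPM in Aqp5+/+ and at 22.7, 22.3 and 9.11 CPM in Aqp5-/- libraries. The groups of Pnpla3 did not overlap although Aqp5+/+ replicate 2 and Aqp5-/- replicate 3 were close, and its log2 fold change was 2.23 (standard error 0.70) with an adjusted p of 0.41 by edgeR. The adjusted p of Pnpla3 was 0.0496 by DESeq2, 0.11 by the exact test of edgeR and 0.33 by limma, and without Aqp5+/+ replicate 2 its log2 fold change was 3.44.

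The retinoid receptors and their co-regulators, 14 genes tested, had 3 log2 fold changes above 0 and 11 below, with a median of -0.25. None of these 14 had an unadjusted p under 0.05. Nrip1, a co-repressor induced by retinoic acid, was at 38.8, 61.3 and 56.2 CPM in Aqp5+/+ and at 63.8, 70.2 and 94.8 CPM in Aqp5-/- libraries. Its groups did not overlap, with a log2 fold change of 0.55 (standard error 0.26) and an adjusted p of 0.58 by edgeR. The co-repressor Ncor1 had a log2 fold change of -0.45 with an adjusted p of 0.66 by edgeR.

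The list of genes known to be induced by retinoic acid held none of the members. Cyp26a1 and any other member that retinoic acid induces are therefore not counted in it, whichever direction they took. Among all members the log2 fold change was above 0 for 4, with Cyp26a1 at 1.75, and below 0 for 5, with Dhrs3 at -0.78. Of the list, 10 genes were tested and the median log2 fold change was 0.40. Without Aqp5-/- replicate 3 that median was -0.06. Rarres1, a membrane protein first described as retinoic acid responsive in human skin, was at 29.0, 21.8 and 20.6 CPM in Aqp5+/+ and at 14.1, 15.3 and 6.37 CPM in Aqp5-/- libraries. The groups of Rarres1 did not overlap, with a log2 fold change of -1.00 (standard error 0.36) and an adjusted p of 0.48 by edgeR. Nr0b2, a nuclear receptor without a DNA-binding domain, had a log2 fold change of 0.58 and Rarb, a receptor and retinoic acid target, one of 0.37, with adjusted p of 0.64 and 0.81 by edgeR.

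**Figure D5:**
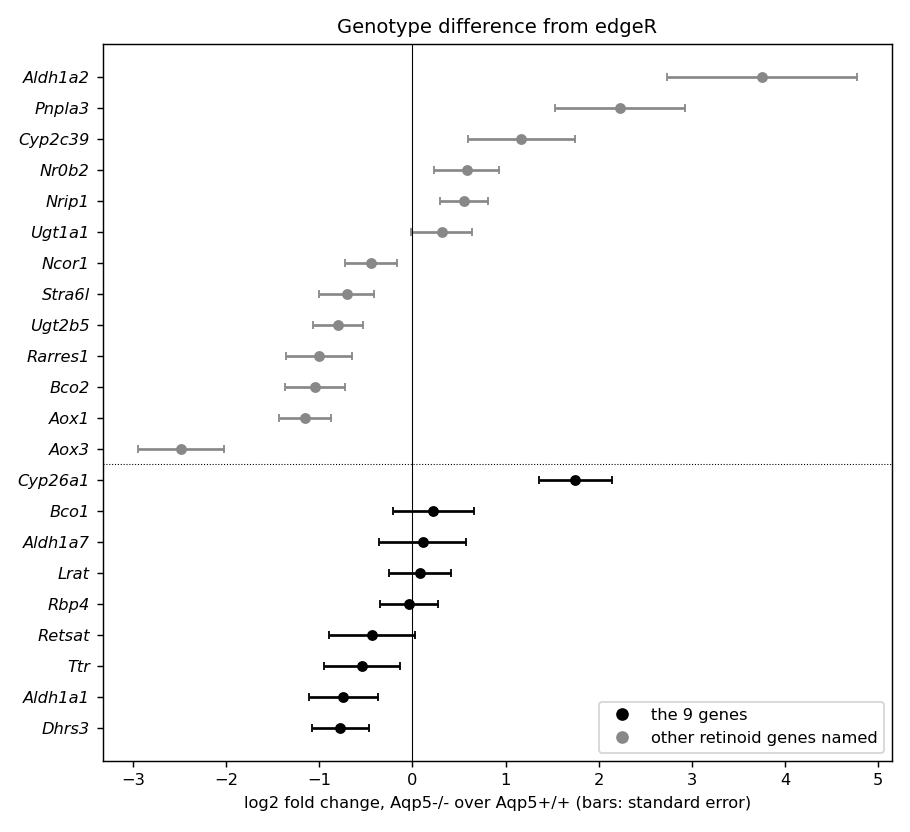
Log2 fold change, Aqp5-/- over Aqp5+/+, of the 9 members (black, below the dotted line) and of the other retinoid genes named (grey). Bars are the standard error worked back from edgeR's quasi-likelihood test. Among the members Cyp26a1 at 1.75 stands farthest to the right, and among the other genes Aox3 lies at -2.48 and Aldh1a2, with the widest bar, at 3.75.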

How the data were processed

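Liver RNA of 3 Aqp5+/+ and 3 Aqp5-/- libraries was measured by RNA-seq after rRNA removal. Per the labels and the study's methods, the authors trimmed reads with cutadapt 1.9.3, aligned them with HISAT2 2.0.4 to mm10 and made the deposited raw counts per gene with HTSeq, which are used as deposited. Whether the counting used strand is not given in the sources used here. The deposited table also holds 6 columns of log2 values normalized by the authors, which share their headers with the counts and were left out, as were the authors' own comparison columns. Genes were matched to GENCODE vM21 by identifier (16666 of 16858).

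Genes were kept by filterByExpr (minimum count 10, minimum total 15), scaled by TMM and tested 2-sided with edgeR 4.0.16 in R 4.3.3 by the quasi-likelihood test with robust estimation, no covariate and Benjamini-Hochberg adjustment over 12353 genes. Fold changes are Aqp5-/- over Aqp5+/+. Their standard errors were worked back from the test, as the absolute log2 fold change divided by the square root of its F statistic. Groups do not overlap where every library of one lies beyond every library of the other. Ratios were tested by exact permutation. The fit was also run on counts simulated from its own means and dispersions, which cannot show how well it suits these libraries. Named were all members, in each retinoid list the 3 tested genes with the smallest unadjusted p, and, after their values were seen, Cyp26b1, Adh1 and Rarb. Of the genes that this rule names, 1 is not reported here. Marker lists are given as sums and counts, without naming their called genes. The members and lists were chosen with earlier results of these data known. Library totals were 7130831 to 15550006 counts, 16 to 273 counts lie behind Cyp26a1, and the common biological coefficient of variation was 0.371. Alternatives were DESeq2 1.42.0, the exact test of edgeR, limma 3.58.1, other scalings and filters, the replicate block and leaving out each library. Aqp5 was not analysed here. Python 3.11.15 was used for summaries.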

Additional observations from a re-analysis of the deposited data

How the results depend on the processing

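Under 14 alternatives, 8 of them other tests, scalings, filters or the replicate block and 6 leaving out a library, the number of genes called among all tested was 41 in the comparison as reported, 240 with DESeq2, 222 with the exact test of edgeR, 45 with limma and 4 to 45 with a library left out. Members called were 0 as reported, 1 (Cyp26a1) with DESeq2 and with the exact test of edgeR, and 0 to 0 with a library left out. Aldh1a1, Ttr, Dhrs3 and Cyp26a1 kept their direction throughout. The log2 fold change of Aldh1a7 was -0.26 without Aqp5+/+ replicate 2 and -0.20 without Aqp5-/- replicate 3, with 0.63 as its highest value without a library. That of Rbp4 was 0.13 with library totals alone (where the median of all tested genes was 0.17), 0.12 without Aqp5-/- replicate 1 and 0.0080 without Aqp5-/- replicate 2, and -0.28 at the lowest without a library. That of Lrat was -0.0064 with limma, -0.0095 with the replicate block, -0.05 without Aqp5+/+ replicate 1 and -0.38 without Aqp5-/- replicate 1, and 0.30 at the highest. That of Retsat was 0.047 without Aqp5+/+ replicate 2 and -0.91 at the lowest, and that of Bco1 was 0.52 at the highest, -0.0052 without Aqp5+/+ replicate 3 and -0.29 without Aqp5-/- replicate 3. The log2 difference of the Rbp4 to Ttr ratio was -0.070 without Aqp5-/- replicate 3 and 0.83 at the highest, and that of the Aldh1a7 to Aldh1a1 ratio lay between 0.47 and 1.31. The cause was not tested.

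The deviations of same-numbered libraries had correlations of -0.06, 0.23 and 0.15, so the numbers were not taken as pairs. Aqp5+/+ replicates 2 and 3 correlated best with the Aqp5-/- library of their own number, and Aqp5+/+ replicate 1 with Aqp5-/- replicate 3 (0.086). The deviations were centred within each group, so some best match arises for each library in any case. The design does not give these pairs, and the correlations were not tested. With the replicate block, 39 genes and 0 members were called, and Cyp26a1 had a log2 fold change of 1.84 with an adjusted p of 0.17 by edgeR. A fit to the deposited log2 values was not run. Depth differed widely among the genes named: Cyp26a1 had 16 to 273 counts per library and Aldh1a2 1 to 103, whereas Ttr, with 13912 to 42750 counts, had a standard error of 0.41 beside 0.39 for Cyp26a1.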
